A study of Homo sapiens with 4 samples.

Results

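The laminin chain genes examined here were LAMA1, LAMA2, LAMA3, LAMA4, LAMA5, LAMB1, LAMB2, LAMB3 and LAMC1. These 9 genes were matched by symbol among the 63568 gene identifiers of the deposited files. The set was chosen by family membership together with the strong fall of LAMA1 after USP47 knockdown, so the difference between USP47 shRNA and control shRNA in these same libraries had already been used to choose it. The values of the members in that comparison are therefore given as a description. RNA-Seq was performed in HGC-27, an established human gastric carcinoma cell line, with 2 libraries from cells infected with lentivirus carrying control shRNA (a scrambled hairpin) and 2 libraries from cells infected with lentivirus carrying USP47 shRNA. The infected cells were selected with puromycin into stable populations, so both groups share viral integration and selection. The study used more than 1 hairpin against USP47, and the labels do not state which hairpin each knockdown library carries. USP47 is a ubiquitin-specific protease, an enzyme that removes ubiquitin from other proteins, and the question addressed by the sequencing was which cellular pathways respond to its loss.

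Laminins are large secreted glycoproteins of basement membranes, the thin matrix sheets on which epithelial, muscle and nerve cells rest. Each laminin is a trimer of an alpha, a beta and a gamma chain joined by a coiled coil, and it is named after the numbers of its chains, so that laminin-511 holds the products of LAMA5, LAMB1 and LAMC1. The alpha chain carries the large globular domains at its end that bind integrins and dystroglycan on the cell surface. Beta and gamma chains pair inside the cell, and the alpha chain joins them before the trimer is secreted.

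Total counts on genes lay between 15649899 and 20140273 per library. USP47 itself had 1357 and 1297 counts with control shRNA against 749 and 309 counts with USP47 shRNA, which left 49.3% and 29.5% of the mean control level. The marker genes of the labelled cell type were checked as well. The 5 epithelial markers CDH1, EPCAM, KRT8, KRT18 and KRT19 summed to between 0.339 and 0.762 TPM (the deposited transcript level per length, scaled so that all genes sum to the same total in every library) in each library, and none reached 1 TPM in all 4 libraries. Their sum was at least 0.709 TPM with control shRNA and at most 0.561 TPM with USP47 shRNA, and the part of this in the values below was not tested. These sums rest on few reads. EPCAM had 12 and 11 counts against 3 and 3, whereas CDH1 had 13 and 12 against 28 and 8. KRT8 had 10 and 19 counts against 10 and 10, and KRT18 and KRT19 had at most 1 count in any library. No marker of the gastric epithelium list exceeded 1 TPM in every library either. In contrast, 4 of 5 mesenchymal markers and all 4 fibroblast markers (DCN, LUM, COL1A1 and COL3A1) exceeded 1 TPM in every library. Mesenchymal markers summed to 213 to 245 TPM with control shRNA and to 218 to 219 TPM with USP47 shRNA. Fibroblast markers summed to 510 to 575 TPM and to about 517 TPM, so the knockdown sums lay within the range of the controls. Within the fibroblast list COL1A1 had 133 and 126 TPM with control shRNA and 64.1 and 74.8 TPM with USP47 shRNA. COL3A1 went the other way, with 362 and 322 TPM against 379 and 385 TPM, and the groups overlapped for DCN and LUM. The 3 endothelial markers matched stayed at or under 0.238 TPM in sum.

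The member genes lie on 6 chromosomes of GRCh37. LAMA1 (ENSG00000101680) spans chromosome 18 from 6941741 to 7117796 on the minus strand, with 62 exon blocks, and LAMA3 (ENSG00000053747) spans the same chromosome from 21269417 to 21536186 on the plus strand. LAMA2 (ENSG00000196569) lies on chromosome 6 from 129204283 to 129837711, and LAMA4 (ENSG00000112769) on that chromosome from 112429134 to 112576141. LAMA5 (ENSG00000130702) lies on chromosome 20 from 60883011 to 60942368. LAMB1 (ENSG00000091136) lies on chromosome 7 from 107564244 to 107643658, and LAMB2 (ENSG00000172037) on chromosome 3 from 49158547 to 49170551. LAMB3 (ENSG00000196878) lies on chromosome 1 from 209788215 to 209825770, and LAMC1 (ENSG00000135862) on the same chromosome from 182992555 to 183114727.

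Most of the laminin transcripts in these cells came from a few chains. In the control libraries LAMB1 stood highest at 60.0 ± 10.1 TPM (SD, n = 2), and its libraries overlapped those of LAMC1 at 52.8 ± 6.27 TPM. LAMA5 followed at 40.3 ± 2.86 TPM and LAMA2 at 27.1 ± 6.18 TPM. LAMB2 had 13.4 ± 1.17 TPM and LAMA3 had 8.39 ± 1.27 TPM. LAMA1 followed at 1.38 ± 0.245 TPM. From LAMC1 down to LAMA4 the control libraries of neighbouring chains in this order did not overlap. LAMA4 was near the bottom with 0.0832 ± 0.00220 TPM, and LAMB3 with 0.0345 ± 0.0290 TPM was not separable from the chains LAMB4 and LAMC3, which are outside the set. The same order held in the knockdown libraries down to LAMA4. There LAMC1 overlapped with both LAMB1 and LAMA5, and LAMA2 overlapped with LAMB2. Among the 21932 genes that passed the filter on low counts, LAMB1 lay above 96.0%, LAMC1 above 95.3% and LAMA5 above 93.5% by mean control TPM, whereas LAMA1 lay above 19.8%. The authors' TPM rest on a LAMB1 length of 8140 bases. With the exon length of the newer annotation, 18592 bases, LAMB1 came to 30.7 TPM in place of 60.0 TPM in the controls and stood below LAMC1 and LAMA5, and LAMA2 came to 12.0 TPM in place of 27.1 TPM and stood below LAMB2.

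**Figure D1:**
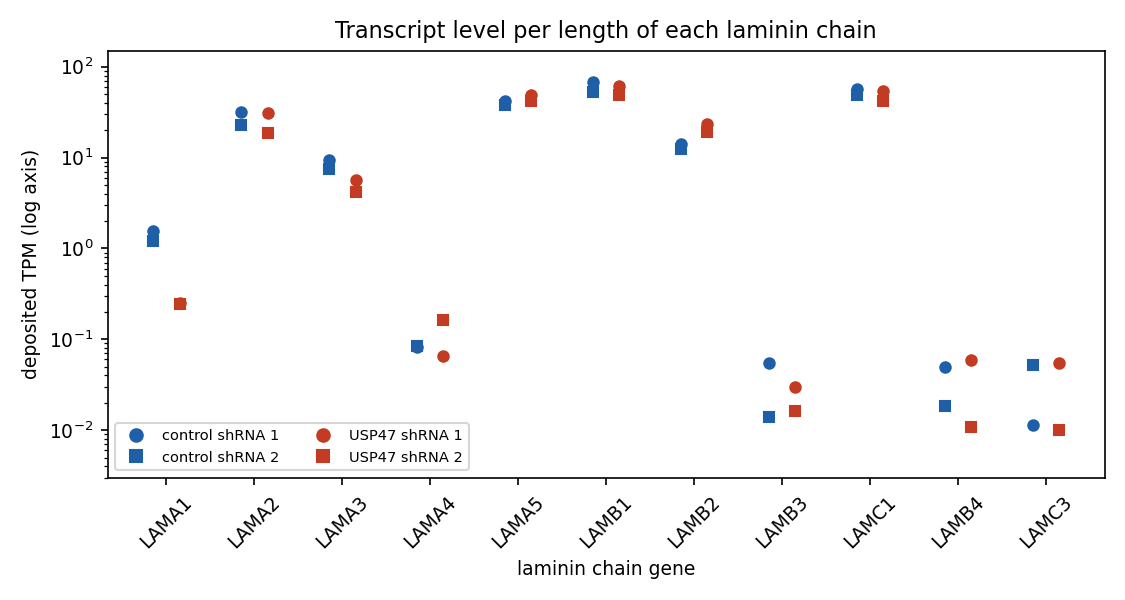
Deposited TPM (log axis) of each laminin chain gene in the 2 control shRNA libraries (blue) and the 2 USP47 shRNA libraries (red). LAMB1, LAMC1, LAMA5 and LAMA2 have the highest mean TPM in both groups, although LAMB2 stands above LAMA2 in USP47 shRNA replicate 2. LAMA1 drops from 1.38 to 0.247 TPM on average, and LAMB3, LAMB4 and LAMC3 stay under 0.1 TPM in every library.

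Knockdown of USP47 was accompanied by a large drop of LAMA1, a smaller drop of LAMA3 and a gain of LAMB2, while LAMB1, LAMC1 and LAMA2 stayed near their control level. Of the 9 members, 8 passed the filter and LAMB3 did not. With the quasi-likelihood test of edgeR, fitted on 21932 genes, 2 members (LAMA1 and LAMA3) were called lower at an adjusted p under 0.05, beside 9.56% of all genes tested. A further member, LAMB2, was called higher, beside 6.52% of all genes, and 5 members were not called. Both knockdown libraries lay below both controls for 2 members, an order found in 31.7% of all genes tested, and above both controls for LAMB2 and LAMA5, an order found in 29.3%. The median log2 fold change of the 8 members was -0.014, and that of all genes tested was -0.0083. In bulk RNA, fewer cells of a type and less RNA per cell cannot be told apart. No exact permutation test was run on single values, since 2 libraries against 2 cannot give a two-sided p below 0.333.

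**Figure D2:**
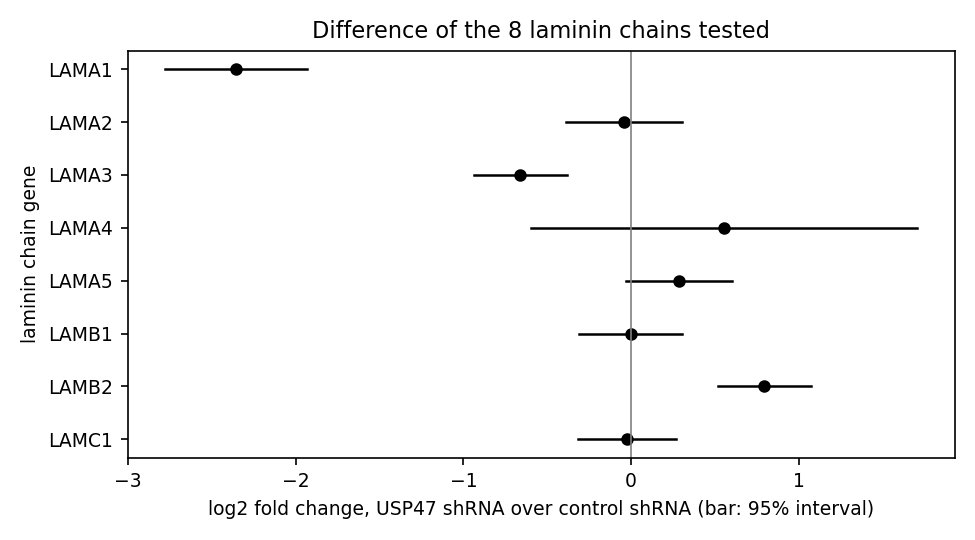
Log2 fold change of each of the 8 laminin chains tested, USP47 shRNA over control shRNA, from edgeR's fit over all genes, with 95% intervals as bars. LAMA1 lies farthest from 0 at -2.36, LAMA3 at -0.66 and LAMB2 at 0.79 have intervals that leave out 0, and the other 5 intervals include it.

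LAMA1 encodes the alpha chain of laminin-111, the laminin of early embryos and of the mouse tumor matrix sold as Matrigel. It had 287 and 293 counts with control shRNA and 57 and 51 counts with USP47 shRNA. After scaling, this came to 16.9 and 14.9 CPM (counts scaled to library size after TMM normalization) with control shRNA against 2.74 and 3.55 CPM with USP47 shRNA. The groups were far apart, and replicates within each group lay close together. The log2 fold change was -2.36 (standard error 0.19, 95% interval -2.78 to -1.93), a level 5.12-fold lower. The knockdown library with more remaining USP47, 49.3%, kept 17.2% of the control level of LAMA1, and the library with 29.5% of USP47 kept 22.3%. In CPM the order of LAMA1 within the knockdown pair was thus not that of USP47. In TPM it was, with LAMA1 at 0.250 and 0.243 TPM and USP47 at 4.68 and 2.09 TPM in replicates 1 and 2. The order within this pair was not tested. A pair of antisense transcripts that share exon bases with LAMA1 had at most 1 count in any library.

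LAMA3 encodes an alpha chain of laminins that anchor skin and other epithelia. Its libraries had 86.3 and 79.0 CPM with control shRNA and 52.9 and 51.5 CPM with USP47 shRNA. All knockdown values lay below all control values, and both knockdown libraries kept a similar share, 64.1% and 62.3%. The log2 fold change was -0.66 (standard error 0.13). LAMA3 has a long and a short form with separate starts. The counts are per gene, so the forms were not separated here. With control shRNA replicate 1 left out, its log2 fold change was -0.60 and it was not called.

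The promoter windows of LAMA3, which was lower, and of LAMA5, the most abundant alpha chain, are shown to give the sequence next to a start of a chain that was lower and of the chain that dominated its class. Windows of 250 bases before the gene start were taken from RefSeq (GRCh38.p14), in which 8 of the 9 members had an entry and LAMA1 had none. Letter matches are in capitals. The words searched on both strands were CAGGTG (the E-box that Snai1 and related repressors bind), TGACTCA (the site of AP-1, the FOS and JUN dimer), GGGCGG (the GC box) and GACCACCCA (the site of GLI factors).
LAMA3, chr18:23872770-23873019, plus strand: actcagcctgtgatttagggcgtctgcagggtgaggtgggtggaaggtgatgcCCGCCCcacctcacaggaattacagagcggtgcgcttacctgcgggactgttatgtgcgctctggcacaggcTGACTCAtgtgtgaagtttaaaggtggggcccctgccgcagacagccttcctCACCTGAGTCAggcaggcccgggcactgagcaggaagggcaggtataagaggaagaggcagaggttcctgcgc
LAMA5, chr20:62367313-62367562, minus strand: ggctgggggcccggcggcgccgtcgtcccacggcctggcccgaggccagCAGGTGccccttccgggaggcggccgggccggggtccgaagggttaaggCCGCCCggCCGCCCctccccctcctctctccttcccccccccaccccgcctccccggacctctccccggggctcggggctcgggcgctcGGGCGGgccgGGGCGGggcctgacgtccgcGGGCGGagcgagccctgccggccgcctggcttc

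In the LAMA3 window the AP-1 word occurred at 2 places, starting 125 and 69 bases before the start. The E-box word ended inside the one nearer to the start and shares bases with it, and a GC box lay 197 bases before the start. AP-1 words were held by 4.2% of the 35116 windows of all genes, E-box words by 17.5%, GC boxes by 42.6% and the GLI word by 0.199%. The LAMA5 window held 5 GC boxes and an E-box and no AP-1 word. Its GC content was 82.8%, against 60.4% for LAMA3. The LAMA3 window matched GRCh37 at 1 place, chromosome 18 from 21452734 to 21452983. That place lies inside the gene, 183567 bases downstream of the gene's outer start and directly before an annotated transcript start. Among the other members an AP-1 word was found only in a window of LAMB3, and the LAMA2 and LAMA4 windows held none of the 4 words. A match of letters does not show that a factor binds there, and no binding was measured in these libraries.

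The remaining alpha chains were not called in either direction. LAMA5, the alpha chain of laminin-511 and the broadest of adult basement membranes, had 428 and 439 CPM with control shRNA and 490 and 566 CPM with USP47 shRNA. Both knockdown libraries stood above both controls, at 113% and 131% of the control mean, with a log2 fold change of 0.29 (95% interval -0.030 to 0.60) that was not called. With USP47 shRNA replicate 1 left out, LAMA5 had a log2 fold change of 0.39 and was called higher. ADRM1 on the other strand shares 244 exon bases with LAMA5 and was itself called higher (log2 fold change 0.63, standard error 0.13). LAMA2, the alpha chain of muscle and nerve laminins, had 217 and 178 CPM with control shRNA and 212 and 171 CPM with USP47 shRNA, so the groups overlapped almost fully. Its log2 fold change was -0.041 (95% interval -0.39 to 0.31). LAMA4, the alpha chain of vessel walls and fat, rested on 11 and 15 counts in the controls and 11 and 25 in the knockdown. Its interval, -0.59 to 1.71 on the log2 scale, was the widest of the 8 and included 0, and its knockdown libraries differed from each other by more than the controls did. With USP47 shRNA replicate 1 left out LAMA4 was called higher (log2 fold change 1.29), and with USP47 shRNA replicate 2 left out its log2 fold change was -0.42.

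Among the beta chains, LAMB2 was higher after knockdown and LAMB1 was level. LAMB2, the beta chain of the neuromuscular junction and the kidney filter, had 67.0 and 67.2 CPM in the control libraries. With USP47 shRNA it had 111 and 121 CPM, 166% and 181% of the control mean. The control libraries differed by far less than the gap between the groups. The log2 fold change was 0.79 (standard error 0.13, 95% interval 0.52 to 1.07). With control shRNA replicate 1 left out it was again 0.79, but LAMB2 was not called. LAMB1, the partner chain in most embryonic and vascular laminins, had 375 and 336 CPM against 343 and 366 CPM. Its log2 fold change was -0.0031 (95% interval -0.31 to 0.30). DLD on the other strand shares 300 exon bases with LAMB1 and was not called (log2 fold change 0.26, standard error 0.16). LAMB3, a beta chain of epithelia, had 3, 1, 2 and 1 counts in the 4 libraries and was not tested. No fold is given for it.

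LAMB2 has a nearby copy, the pseudogene LAMB2P1, on chromosome 3, and reads of near-identical stretches could be assigned to either. LAMB2P1 moved the opposite way. It had 71 and 68 counts with control shRNA and 18 and 27 with USP47 shRNA, a log2 fold change of -1.54 with an adjusted p of 0.0118 (edgeR). Summed with LAMB2, the counts were 1207 and 1386 in the controls and 2334 and 1770 in the knockdown. The mean CPM of the sum was 1.66-fold higher in the knockdown, and that of LAMB2 alone was 1.74-fold higher. The gain of LAMB2 in counts was thus larger than all reads of the copy.

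LAMC1 encodes the gamma chain shared by most laminins. It had 331 and 317 CPM with control shRNA and 312 and 324 CPM with USP47 shRNA, with a log2 fold change of -0.026 (95% interval -0.32 to 0.27). The groups overlapped. LAMC3, a gamma chain outside the set, had between 1 and 6 counts in each library. LAMB4, a beta chain, had between 1 and 6 counts.

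The make-up of each chain class was compared next, because shares within a library do not depend on how libraries are scaled against each other. LAMA5 made up 49.96% and 54.9% of the summed alpha chain TPM with control shRNA, against 56.9% and 64.4% with USP47 shRNA. The share of LAMA2 was 37.2% and 32.6% against 36.1% and 28.6%, so its groups overlapped. LAMA3 held 11.0% and 10.7% of the alpha chain TPM in the controls and 6.68% and 6.37% in the knockdown. LAMA1 held 1.83% and 1.73% against 0.294% and 0.375%. LAMA1 was thus a minor alpha chain before knockdown as well, and summed alpha chain TPM was 77.3 ± 10.6 with control shRNA and 74.9 ± 14.3 with USP47 shRNA (SD, n = 2 per group). Within the beta class LAMB2 held 17.4% and 19.2% in the controls and 27.7% and 28.2% in the knockdown. The TPM of LAMB2 relative to LAMB1 was 0.212 and 0.237 in the controls and 0.385 and 0.393 in the knockdown. The ratio of LAMB1 to LAMC1 was 1.13 ± 0.0570 and 1.15 ± 0.0218, a difference within the spread of the replicates. The ratio of LAMA5 to LAMC1 was 0.739 and 0.791 in the controls and 0.898 and 0.998 in the knockdown. These shares and ratios depend on the gene lengths used. With the exon lengths of the newer annotation, an alternative chosen after seeing the data, the mean ratio of LAMB1 to LAMC1 was 0.498 with control shRNA and 0.506 with USP47 shRNA, so LAMC1 stood above LAMB1. The mean ratio of LAMB2 to LAMB1 was then 0.513 and 0.888, and the mean share of LAMB2 in the beta class was 33.8% and 46.98%. LAMA2 then held 16.7% and 15.2% of the alpha class on average.

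**Figure D3:**
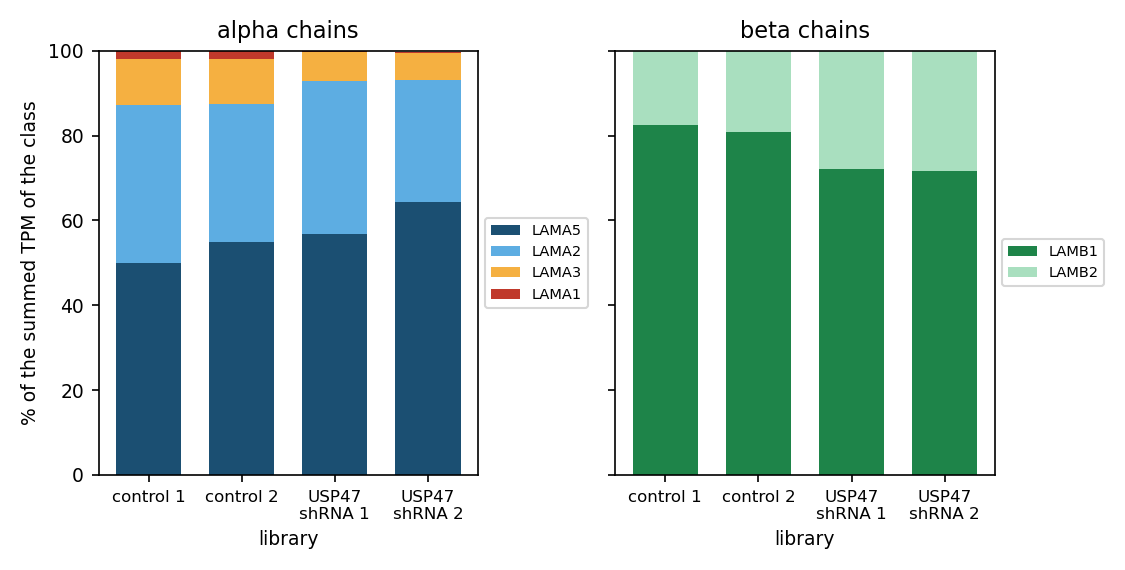
Share of each laminin chain in the summed TPM of its class, alpha chains at left and beta chains at right, for each of the 4 libraries (chains under 0.3% in every library are not drawn). LAMA3 falls from about 11.0% to 6.68% and LAMB2 grows from 17.4% to 27.7% between the first library of each group, while LAMA5 and LAMA2 hold most of the alpha class throughout.

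To see which trimers had transcripts for all their chains, the lowest of the 3 chain levels was taken for 13 known trimers in each library. These TPM values are levels, and no test was run on their difference between the groups. RNA levels do not measure secreted protein, and trimers that share a chain draw on the same transcripts. In the control libraries the lowest chain exceeded 1 TPM on average in 8 of 13 trimers, and in the knockdown libraries in 6 of 13. The pair that dropped below 1 TPM was laminin-111 and laminin-121. LAMA1 was the lowest chain of both in all 4 libraries, with 1.55 and 1.21 TPM against 0.250 and 0.243 TPM. The fall of LAMA1 was used to choose the set, so this change in the number of trimers restates that choice. Laminin-511 had the highest lowest chain in both groups. It was LAMA5 in every library, with 42.3 and 38.3 TPM against 48.4 and 41.8 TPM. For laminin-521 the lowest chain was LAMB2 in every library, with 14.2 and 12.6 TPM against 23.5 and 19.2 TPM, so the groups did not overlap. For laminin-211 it was LAMA2, with 31.5 and 22.8 TPM against 30.7 and 18.5 TPM. For laminin-221 it was LAMB2 in 3 of 4 libraries and LAMA2 in USP47 shRNA replicate 2. Laminin-311 and laminin-321 were set by LAMA3, with 9.29 and 7.49 TPM against 5.68 and 4.13 TPM.

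The other trimers had a chain near 0 in both groups. LAMA4 was the lowest chain of laminin-411 and laminin-421, between 0.0663 and 0.163 TPM. LAMC3 was the lowest chain of laminin-213, laminin-423 and laminin-523, at or under 0.0551 TPM. In both groups the alpha chain was the lowest chain of 8 of the 13 trimers. With the exon lengths of the newer annotation, LAMB1 in place of LAMA5 was the lowest chain of laminin-511, and LAMA2 in place of LAMB2 that of laminin-221.

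**Figure D4:**
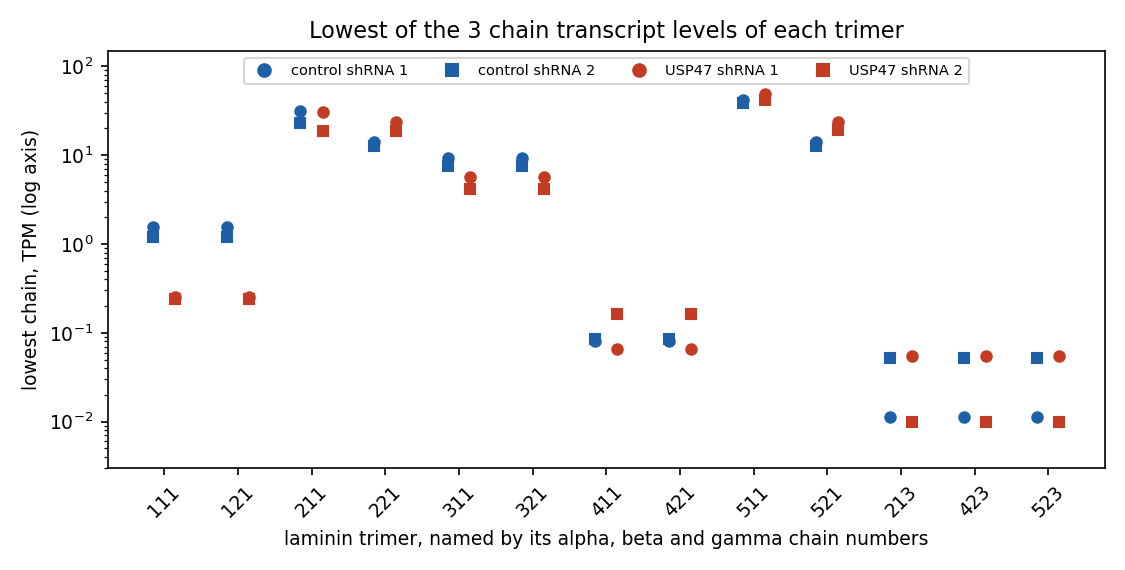
Lowest of the 3 chain TPM values (log axis) for each of 13 laminin trimers in the 2 control shRNA libraries (blue) and the 2 USP47 shRNA libraries (red). Laminin-111 and laminin-121 fall from above 1 TPM to about 0.25 TPM, and laminin-521 stands higher with USP47 shRNA.

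Cells bind laminins through integrins, dystroglycan, syndecans and other receptors, and 14 such genes were examined in the fit over all genes. All 14 were tested and 10 were not called. Of the rest, 3 were called lower, beside 9.56% of all genes tested, and 1 was called higher, beside 6.52%. The median log2 fold change of the 14 was -0.19, and that of all genes tested was -0.0083. The number of receptor calls fell without either control library, where those left were all lower, and rose without either USP47 shRNA library. The number of all genes called fell and rose in the same settings. ITGA6, the alpha subunit of the main epithelial laminin receptors, was lower (17.2 ± 0.332 against 9.65 ± 1.04 CPM, SD, n = 2 per group, adjusted p = 0.00736 in edgeR). ITGA7, the alpha subunit of a laminin receptor of muscle, was lower by a log2 fold change of -0.97 (SE 0.18, adjusted p = 0.00665 in edgeR). SDC1, a heparan sulfate proteoglycan that binds laminin globular domains, was lower as well (log2 fold change -0.80, adjusted p = 0.00532 in edgeR). The related SDC4 was higher, with 13.0 ± 0.133 against 21.8 ± 3.68 CPM (log2 fold change 0.74, adjusted p = 0.0134 in edgeR). Among the 10 that were not called, RPSA, ITGB1 and DAG1 had the highest CPM, a scale that does not correct for gene length. ITGB1, a beta subunit of these integrins but not the only one, had 278 ± 16.5 against 260 ± 30.9 CPM. DAG1, which encodes dystroglycan, had 91.0 ± 9.25 against 111 ± 19.2 CPM.

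Of 26 genes for other basement membrane components, 21 were tested, 3 were called lower, none higher and 18 were not called. Their median log2 fold change was -0.026. Without either USP47 shRNA library the number of calls rose, with some of them higher, and the number of all genes called rose as well. HSPG2, which encodes the heparan sulfate proteoglycan perlecan, had 160 ± 1.56 CPM with control shRNA and 91.7 ± 10.6 CPM with USP47 shRNA (adjusted p = 0.00449 in edgeR). COL18A1, a basement membrane collagen, was lower at -0.85 on the log2 scale (adjusted p = 0.0104 in edgeR). FRAS1, a protein of the epithelial basement membrane, was lower at -0.75 (adjusted p = 0.00752 in edgeR). AGRN, which links laminin to dystroglycan, had 304 ± 17.5 against 327 ± 39.2 CPM and was not called. FBLN1 and FREM2, which followed AGRN by CPM among the genes not called, had 210 ± 10.9 against 206 ± 53.3 CPM and 195 ± 13.6 against 237 ± 64.2 CPM. With edgeR 0 were called higher and with DESeq2 0 as well. At an unadjusted p under 0.05 in edgeR, 5 of the list were lower and 2 were higher. COL4A1 and COL4A2, the usual chains of the collagen network in basement membranes, had at most 9 counts in any library and were not tested. Another type IV collagen chain, COL4A5, had 1349 and 1388 counts in the controls and 1223 and 944 in the knockdown, and was not called. COL4A3, COL4A4 and COL4A6 had at most 90 counts in any library. Their log2 fold changes were -0.39, 0.63 and -1.08, and none of these was called. These collagen genes were picked after their values were seen. The background shares of 9.56% lower and 6.52% higher calls apply to both lists in the fit of all 4 libraries, and not to fits without 1 library.

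**Figure D5:**
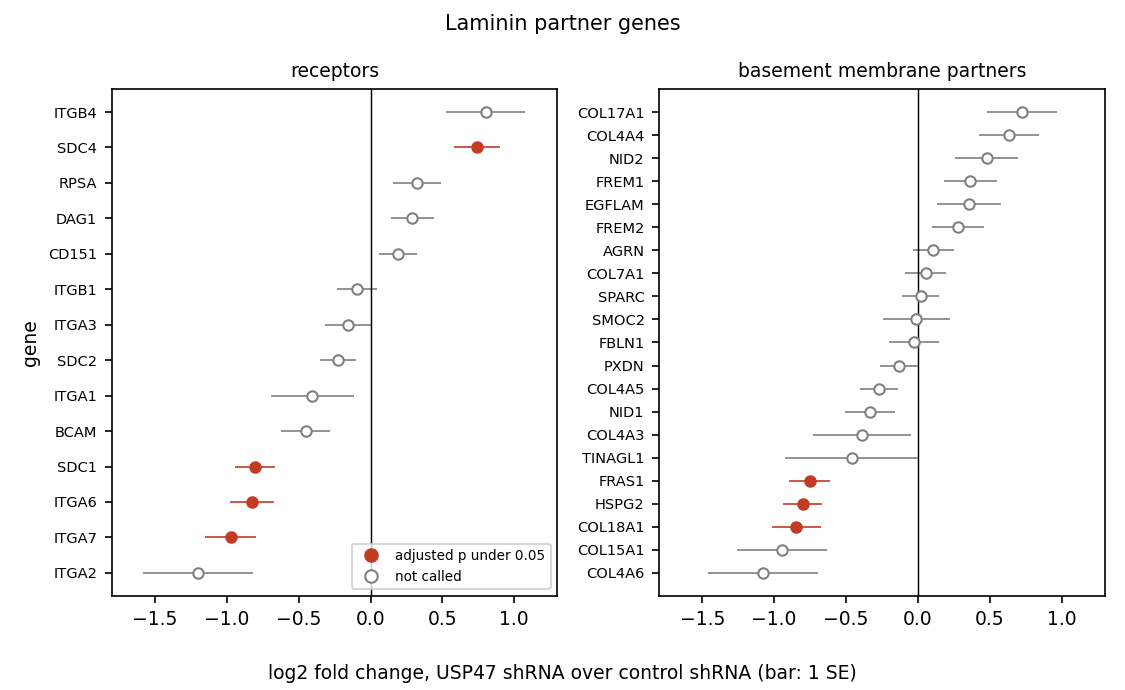
Log2 fold change of the tested laminin receptor genes (left) and other basement membrane genes (right), USP47 shRNA over control shRNA, with bars of 1 standard error. Filled points passed an adjusted p of 0.05 in edgeR's quasi-likelihood test, and in each list most points are open.

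Lastly, the genes whose pattern over the 4 libraries was nearest to that of LAMA1 were listed, by the root mean square distance of log2 CPM around each gene's mean. The 5 nearest were PI15 (distance 0.0436), PHF21B (0.0626), GPR173 (0.103), SHC2 (0.119) and ELFN2 (0.121). PI15 had 82.1 CPM on average with control shRNA and 16.7 CPM with USP47 shRNA. With 4 libraries such a distance mostly reflects the fall between the groups, and these genes were picked for it.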

How the data were processed

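HGC-27 cells were sequenced in 2 control shRNA and 2 USP47 shRNA libraries, grouped by GEO title. The study's methods describe RNA taken in triplicate, whereas the samples analysed here and the series' design text give duplicates. Per the study's methods and the submitters' processing notes, reads were trimmed at a quality score of 20, mapped to hg19 with STAR 2.7.5c and stripped of duplicates and low-quality reads with SAMtools 1.9. featureCounts is named without a version, and the annotation and strand setting are not given in the sources used here. The authors deposited unnormalized counts per gene, with the TPM and FPKM values that the authors derived from these counts. Removal of duplicates can lower the counts of abundant genes. 7SL RNA copies took 33.8% to 39.0% of the TPM of a library, which lowers all other TPM values, so tests were run on counts, and differences in TPM between groups are given as levels without a test.

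Counts were tested with edgeR 4.0.16 in R 4.3.3 (TMM, filterByExpr, robust quasi-likelihood fit, two-sided, Benjamini-Hochberg adjusted p over all genes). Standard errors are the log2 fold change over the square root of F. The steps were tested on simulated data. Levels between genes used the deposited TPM. Of 63568 identifiers, 55665 had a symbol. Positions and exon lengths come from the lifted GENCODE annotation on GRCh37. The members and lists were chosen with earlier results of these data known. Named genes were the members, other laminin chains, overlapping or copied genes, and called list members with at most 3 others per list by CPM. The type IV collagen genes COL4A1 to COL4A6 and the marker genes were named too. So were the 5 genes nearest to LAMA1 (pseudocount 0.1, average log2 CPM of at least 1). Alternatives covered DESeq2 1.42.0, scaling, filters, a minimum fold change, replicate number as a block, leaving out each library, and gene length. With 2 libraries per group, a gene's spread rests largely on that shared with genes of like abundance. Some chains, trimers, markers and a list fixed for the analysis are not reported here.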

Additional observations from a re-analysis of the deposited data

How the results depend on the processing

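The number of changed genes, 3527, was 2295 with the DESeq2 1.42.0 Wald test and 71 when a log2 fold change above 1 was itself tested. It was 2801 to 3493 with other scalings, filters or the legacy method, and 1233 to 7272 without 1 library, where the lone library of a group is assumed to vary like the other group. The members called lower, 2, came to 1 with the minimum fold change and to 1 to 2 without 1 library. Those called higher, 1, came to 0 with the minimum fold change and to 0 to 3 without 1 library. LAMA1, whose fall was used to choose the set, was called under all 12 alternatives, with log2 fold changes from -2.53 to -2.15. These alternatives reuse the same libraries, so they give no independent support for that fall. LAMA3 and LAMB2 lost their call with the minimum fold change and without control shRNA replicate 1, and LAMA5 and LAMA4 gained one without USP47 shRNA replicate 1. USP47 had a log2 fold change of -1.34, which did not pass the minimum fold change test (adjusted p = 0.908), and lay between -1.75 and -1.01 without 1 library. The replicate number as a block gave 7419 changed genes, with 9 receptor and 8 basement membrane genes called in place of 4 and 3, and the same numbers of members called lower and higher. The deviations of replicate 1 correlated at 0.213 between the groups, but 2 pairs are too few to show that the numbers pair the libraries, so the block was not used. With the minimum fold change both lists had 0 calls. Without 1 library, receptor calls lay between 2 and 9 and basement membrane calls between 2 and 10, with fewer calls than in all 4 libraries without control shRNA replicate 1 and more without either USP47 shRNA library. Log2 fold changes near 0 changed sign. Without 1 library LAMA2 ranged from -0.19 to 0.11 (0.11 without control shRNA replicate 1 and without USP47 shRNA replicate 2), LAMB1 from -0.086 to 0.080 and LAMC1 from -0.059 to 0.0097. That of LAMA4 was -0.42 without USP47 shRNA replicate 2 and 1.29 without USP47 shRNA replicate 1. LAMB1 came to 0.018 with DESeq2, 0.014 with its size factors, 0.080 without control shRNA replicate 1 and 0.051 without USP47 shRNA replicate 1. LAMC1 came to 0.0042 and 0.0097 without the same 2 libraries. The cause of these changes was not tested. Counts under 10 in a library (LAMB3, LAMB4, LAMC3) limit what can be said of those chains.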
